A study of Mus musculus with 36 samples.

Results

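Natural killer (NK) cells taken from subcutaneous tumours of MC38, a mouse colon carcinoma line, made deficient in B2m, were profiled by RNA sequencing in 3 of the series' 36 samples. The members are the 3 columns of the tumour table, and no control stands in that table. Per the labels, the cells were CD27-CD11b+ NK cells of C57BL/6 (B6) mice with intact B2m, recovered 10 days after 4000000 MC38 B2m-/- cells were injected under the skin. The titles call the samples biological replicates 1 to 3 and do not say whether each came from 1 tumour or from several. The column names also carry the terms B2MKO and SP, which the titles leave unexplained, so the titles were followed. Levels of B2m, Klrc1 and Klra3, which bear on these terms, are given below. Nothing else was done to these mice that the labels state, and no NK cells from tumours with intact B2m were analysed here. The cells set beside them were 9 libraries of freshly sorted CD27-CD11b+ splenic NK cells from WT (B2m+/+, B6) mice, 3 for each of 3 subsets. TP cells are positive for Ly49C, Ly49I and NKG2A, SP cells are positive for Ly49I alone, and TN cells lack all of these inhibitory receptors. The matching 9 libraries from B2m-/- mice, and 3 vehicle libraries, are quoted where they bear on a gene. The vehicle libraries hold NK cells purified from WT splenocytes after 22 h with vehicle, and their labels name no CD27 or CD11b gate.

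NK cells are lymphocytes that kill without antigen-specific priming. They weigh signals from activating receptors against signals from inhibitory receptors that bind MHC class I. B2m is the light chain that class I molecules need to reach the cell surface, so a cell without it lacks a main ligand of the inhibitory Ly49 receptors and of NKG2A, the situation called missing self. In tumours, NK cells are known for lowered activating receptors, altered trafficking receptors and exposure to low oxygen, lactate and TGF-beta. Levels are given as TPM, values that divide the reads of a gene by its length and scale each library to a fixed total, so levels of different genes within a library can be compared.

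The 3 libraries held 14155, 16271 and 14190 genes above 0, and their sequencing depth is unknown because TPM keep no record of it. Mitochondrial transcripts made up 4.13% to 5.77% of the total and ribosomal protein transcripts 12.9% to 15.2%. The 18S ribosomal RNA gene Rn18s was at 2657, 2519 and 10832 TPM, so library 3 carried the most. Pearson correlations of log2(TPM + 1) across 14023 genes were 0.840 between libraries 1 and 2, 0.808 between 1 and 3, and 0.844 between 2 and 3. Genes are not replicates, so these values only describe the libraries.

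NK cell transcripts were prominent, at a lower summed level than in spleen. Gzma, the granzyme A protease of killer lymphocytes, was the highest of the NK effector genes, at 5981, 6077 and 6331 TPM, and ranked 7 by its median position in the libraries. The summed level of 10 NK markers was 12406, 11879 and 12219 TPM, against 20156 to 23891 TPM in WT splenic libraries. Eomes and Tbx21, the transcription factors that define conventional NK cells, were at 572.5 to 653 TPM and at 174 to 242 TPM. Of the sort markers, Itgam, which encodes CD11b, was at 194, 209 and 195 TPM. Cd27 was at 122, 59.3 and 67.4 TPM, inside or below the 84.5 to 205 TPM of the WT splenic libraries sorted by the same gate. B2m itself was at 5196, 3929 and 4536 TPM, above the 2915 to 3420 TPM of WT splenic libraries and far above the 73.9 to 128.5 TPM of the B2m-/- ones.

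Most marker lists of other cells were at low or uneven levels, and library 1 stood apart. Of 9 fibroblast markers, whose sum was 349.5, 1403 and 1149 TPM against 35.0 to 260 TPM in WT splenic libraries, Col3a1, the type III collagen chain, was at 31.0, 910.2 and 739 TPM. Dcn, Pdgfra and Pdgfrb were likewise lowest in library 1, at 5.40, 0 and 1.16 TPM, while Thy1, which NK cells also express, was at 311, 322 and 284 TPM and made most of library 1's sum. The members were uneven. Col1a1, a type I collagen chain, was at only 0.89, 12.3 and 14.3 TPM, and Fap was at 0, 8.0 and 0 TPM. Macrophage and monocyte markers summed to 154, 62.4 and 59.2 TPM over 13 genes against 14.1 to 35.4 TPM, with C1qb, a complement component, at 21.5, 0.22 and 0 TPM. Hbb-b1, a beta globin gene, was at 0, 153 and 400 TPM, and the 7 erythrocyte and platelet markers in both tables summed to 18.5, 211 and 338 TPM. All 10 neutrophil markers and all 6 mast cell and basophil markers were at 0 in every tumour library, but Mpo, a myeloid granule enzyme outside these lists, was at 19.4, 27.6 and 22.2 TPM and under 1 TPM in all splenic libraries. Of 6 endothelial markers, Pecam1, which leukocytes also express, gave all but traces of the sum, since Kdr, Vwf, Egfl7 and Emcn were at 0. T cell markers with a splenic value summed to 137, 125 and 119 TPM over 10 genes against 182.5 to 263 TPM. Nearly all of it was Trbc2, with Cd3e and Cd8a at 0 and Cd3d at 3.93, 0 and 14.0 TPM. Over all 12 listed T cell markers, including those without a splenic value, the tumour sums were far larger, at 1179, 1329 and 1035 TPM. Most of the T cell marker level thus has no splenic counterpart here, and its source was not tested. The 9 B cell and plasma cell markers summed to 169, 134 and 116 TPM, nearly all of it Ighm, with Ms4a1 at 0. The 10 dendritic cell markers summed to 264, 220.0 and 182 TPM, mostly Itgax, which NK cells also express, with Flt3, Xcr1 and Clec9a at 0. The 13 epithelial and carcinoma markers summed to 26.9, 25.4 and 17.5 TPM, inside the 11.2 to 49.7 TPM of WT splenic libraries. Of these, 8 were at 0, Krt18, Krt19, Krt20 and Cdx2 among them. Cdh1, by contrast, was at 1.93, 2.18 and 4.74 TPM against a WT splenic median of 0, and met the rule for ranked higher given below. Carryover of carcinoma cells was not tested. In the plot of marker sums, the tumour points leave the splenic range upward for the fibroblast, endothelial and macrophage lists and, in libraries 2 and 3, for the erythrocyte list.

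**Figure D1:**
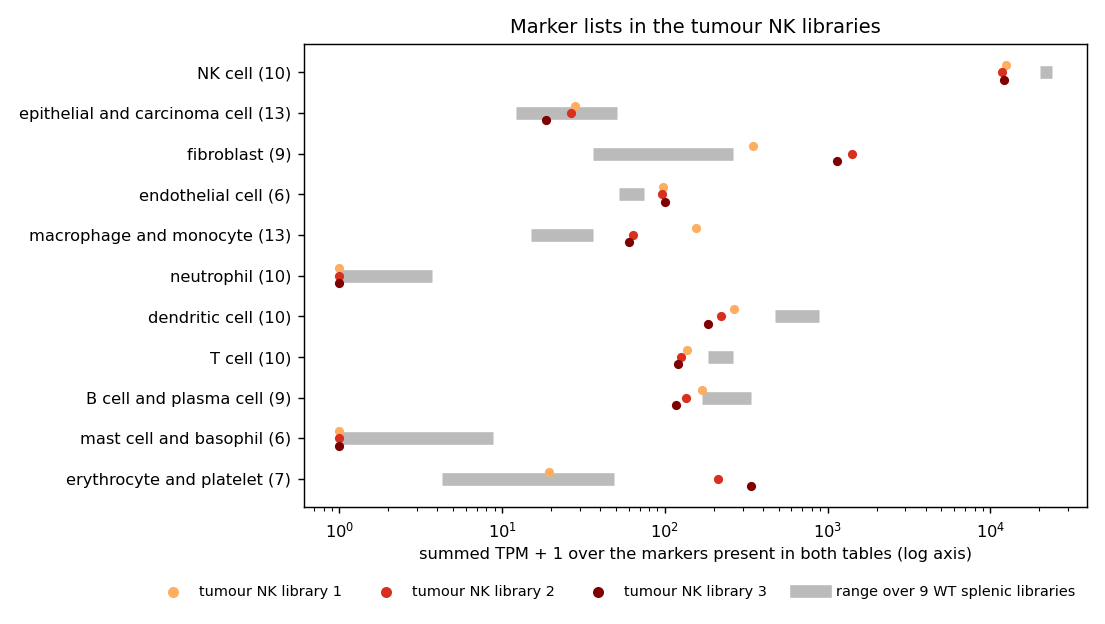
Summed level of 11 marker lists in each tumour NK library (coloured points) and the range over 9 WT splenic libraries (grey bars), as TPM + 1 on a log axis, with the number of markers present in both tables in brackets. The NK sum lies at 11879 to 12406 TPM in the tumour libraries, below the 20156 to 23891 TPM of the splenic ones, and the fibroblast sum is 349.5 TPM in library 1 against 1403 and 1149 TPM in the others.

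Tumour and splenic libraries stand in separate tables, with other gene sets (32938 genes shared by identifier) and other batch dates, so tissue, batch and table cannot be told apart and no test was made. Genes were instead ranked within each library from 1, the highest level. A gene was counted where the average of the tumour mean and the WT splenic mean was at least 1 TPM. It is called ranked higher or ranked lower where all 3 tumour ranks lay beyond all 9 WT splenic ranks and the median ranks differed at least 2-fold. By this rule 947 of 12456 counted genes (7.60%) ranked higher in tumour NK cells and 700 (5.62%) ranked lower. These shares stand beside every list count that follows. The shared last rank of genes at 0 differed between libraries, so a 0 in a tumour library can outrank a 0 in spleen. Shisal2b, Rhox5 and Pxdn were called higher with 0 in library 1 and 0 in every WT splenic library. Such calls were not counted separately. The rule is easier to meet among the highest genes. Gzma met it at a mean of 6129 TPM against a WT splenic median of 9310 TPM. Cxcr3 did not, though its tumour values lay well below the splenic ones. The shares are therefore no matched background for lists of abundant genes. The median gene had a log2 rank ratio, log2 of the splenic over the tumour median rank, of -0.02. When TPM were rescaled to a common total and compared on a log2 scale instead, 834 genes were higher and 2191 lower, and the median gene lay at -0.39. Of the 10 NK markers, 9 ranked lower and none higher, with a median of -2.30, and Eomes was in neither set. Of the 10 sort and identity genes, Ncr1, Klrb1c, Tbx21 and Itgam ranked lower and none higher. Against the vehicle libraries 4 of the 10 NK markers ranked lower and 1 higher, with a median of -0.89. Of the sort and identity genes 1 ranked lower and 1 higher there, with a median of -0.02. A rank also moves when other genes move, and in bulk RNA fewer cells of a type and less RNA per cell cannot be told apart. The rank plot shows most genes close to the diagonal, with immediate early and stress genes above it and mature NK genes below.

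**Figure D2:**
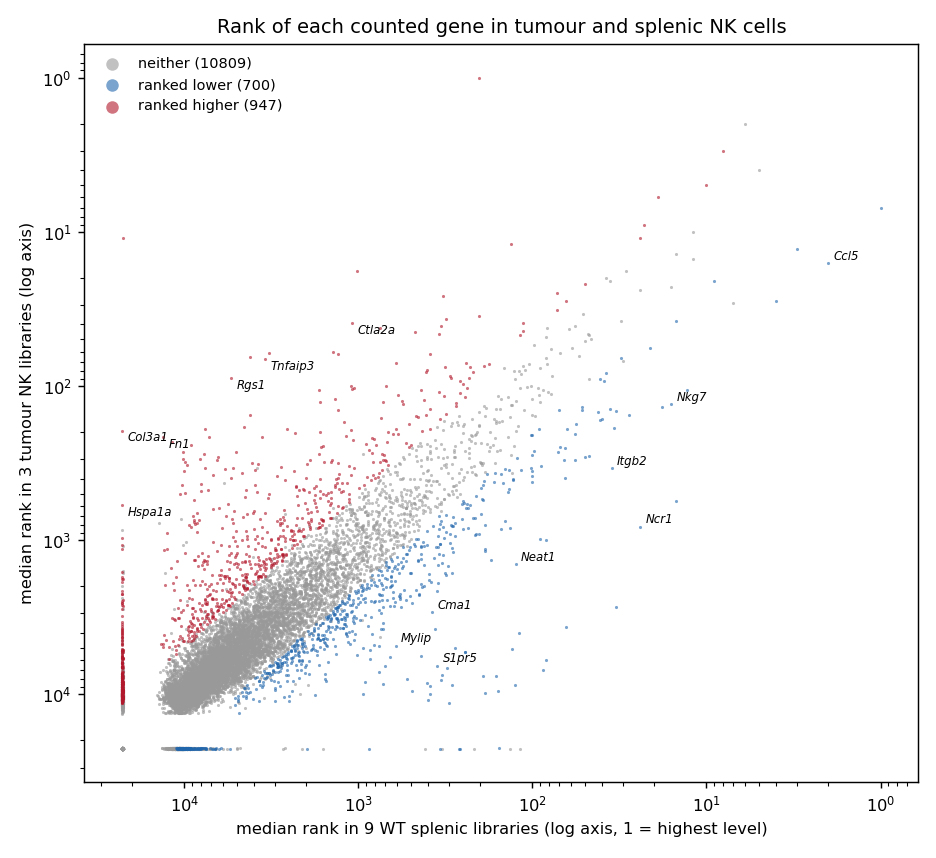
Median rank of 12456 counted genes in 3 tumour NK libraries (vertical, log axis) against 9 WT splenic libraries (horizontal, log axis), with rank 1 at the top and right. Red points (947 genes) ranked higher in tumour NK cells, blue points (700 genes) ranked lower, and genes at 0 in a table line up at its tied last rank.

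The most abundant transcripts were housekeeping, class I and effector genes. With ribosomal protein and mitochondrial genes set aside, Eef1a1, a translation elongation factor, led at 12871, 12409 and 11502 TPM, followed by the class I heavy chain gene H2-K1 at 8739, 8797 and 7882 TPM. Tpt1, Gzma, Rn18s, Hspa8, Tmsb4x, B2m and the chemokine gene Ccl5 came next. Btg1, an antiproliferative gene of resting lymphocytes, was at 2469, 2361 and 2370 TPM and ranked higher than in WT splenic libraries (398 to 486 TPM). Actb, the cytoplasmic beta actin gene, was at 2481, 2549 and 2995 TPM against 5527 to 7589 TPM and ranked lower, as did the actin-binding genes Tmsb4x and Pfn1. Actg1, the gamma actin gene, ranked 24 in both sets.

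Activating receptors and their signalling adaptors sat lower in tumour NK cells than in fresh WT spleen, and less so against the vehicle libraries. Of 21 counted genes of this list, 10 ranked lower and none higher, with a median log2 rank ratio of -0.99. Ncr1, which encodes NKp46, an activating receptor and the NK marker of the mouse, had the largest rank loss among named genes. It was at 182, 168 and 321 TPM, against 1924 to 2416 TPM in WT splenic libraries, and its median rank was 819 against 24. No tumour value came near the splenic range, and library 3 was the highest of the 3. Klrk1, the gene of NKG2D, which binds stress ligands, was at 831, 749.5 and 926 TPM against 1498 to 2213 TPM. Tyrobp, the DAP12 adaptor, was at 1302, 1134 and 961 TPM against 2294 to 2811 TPM. Both ranked lower, together with Fcer1g, Klrb1c, Cd244a, Slamf7, Cd160 and the kinase genes Syk and Lck. Syk stood at 65.5, 72.6 and 48.4 TPM against 195 to 244 TPM. Cd226, the gene of DNAM-1, was at 24.1, 50.9 and 49.5 TPM, inside the splenic range of 15.5 to 133 TPM. Fcgr3, the CD16 chain that binds antibody, was at 146, 114 and 138 TPM, partly above the 92.3 to 143 TPM of the spleen, and was called in neither direction. The vehicle libraries had Ncr1 at 800.3, 1073 and 512 TPM, so all 3 tumour values lay below those as well. Ncr1 did not stand for the list there. Against vehicle 4 of the 21 ranked lower and 1 higher, with a median of -0.12. Tyrobp, Cd160 and Klrb1c turned in sign, with log2 rank ratios of 0.169, 0.412 and 0.005.

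Of 13 counted entries for inhibitory receptors, 5 ranked higher and 1 lower, with a median of 0.98, beside 7.60% higher and 5.62% lower over all counted genes. That median was 0.60, 0.30 and 0.51 without library 1, 2 and 3, 0.22 with B2m-/- libraries added to the reference and -0.64 against the vehicle libraries. Tigit, which competes with DNAM-1 for its ligands, was at 489, 489.6 and 341 TPM against 5.83 to 50.9 TPM. All 3 tumour values also lay above the 79.6 to 277 TPM of the vehicle libraries and above the 41.6 to 139.8 TPM of B2m-/- splenic libraries. Klrb1b, the inhibitory NKR-P1B receptor, was at 809.8, 885 and 877 TPM against 109 to 385 TPM. Both entries of Lilrb4a, an inhibitory receptor of myeloid cells and activated NK cells, ranked higher, one of them at 87.0, 70.3 and 87.4 TPM against at most 4.28 TPM. Ctla4 met the rule at only 0, 5.02 and 1.39 TPM against 0 throughout the WT splenic libraries. Its 0 in library 1 outranked the splenic zeros only because the shared last rank differs between libraries (22430 against 22614 or more). The call is therefore not a separation in level. Klrd1, the CD94 partner of NKG2A, was the 1 that ranked lower, at 609, 479 and 458 TPM against 1119 to 1530 TPM. Pdcd1, the PD-1 gene, was listed at 0 in all 3 libraries, Havcr2 at 1.38, 0.18 and 0 TPM, and Lag3 at 3.09, 4.24 and 3.39 TPM, inside the splenic range. Klrg1, a receptor of mature NK cells, was at 29.1, 55.1 and 36.1 TPM, below all 9 splenic values, but its ranks overlapped and it was called in neither direction. Without library 2 the lower count of this list is 2, and with B2m-/- libraries added to the reference the higher count is 3.

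The receptors that define the splenic subsets were all present. Klrc1, the NKG2A gene, was at 328, 331 and 377 TPM, between a mean of 864 TPM in WT TP cells and means of 25.4 and 22.5 TPM in SP and TN cells. Klra9, the Ly49I gene, was at 399.9, 343 and 476 TPM, between the means of 963 and 928 TPM in TP and SP cells and that of 82.4 TPM in TN cells. Klra3, the Ly49C gene, was at 199, 125 and 213 TPM against means of 217, 1.40 and 1.44 TPM in TP, SP and TN cells. The tumour values of Klrc1 and Klra3 thus lay far above the WT SP means, so by transcript the libraries did not resemble splenic SP cells. Of 9 counted Ly49 genes, Klra8 and Klra10 ranked lower and none higher, with a median of -0.66, beside 5.62% lower and 7.60% higher over all counted genes. Without library 3, 1 member ranked higher. Ly49 and NKG2 genes are near-identical copies, so reads may be split among them and each value is uncertain.

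Granzyme and perforin genes differed from one another. Gzma ranked 7 in tumour NK cells and 1 in WT splenic ones, where it was at 7841 to 10202 TPM, and so met the rule for ranked lower. Gzmb, the apoptosis-inducing granzyme B, was at 1752, 1779 and 2035 TPM, above all WT splenic values of 651 to 1001 TPM, but its ranks were less than 2-fold apart and it was called in neither direction. Gzmc, a granzyme of activated killers, was at 292, 248 and 273 TPM against 0 to 3.78 TPM and had a median rank of 500 against 10608. Prf1, the pore-forming perforin, was at 434, 468 and 472 TPM against 1119 to 1599 TPM and ranked lower. Gzmm was at 3.00, 0 and 0 TPM against 7.25 to 24.9 TPM. Gzmd, Gzme and Gzmg were at 0, and granzyme genes share sequence, so their reads may be split. Of the 6 counted genes 1 ranked higher and 3 lower, with a median of -0.46 that was 0.485, -0.288 and 0.491 without library 1, 2 and 3 and 0.149 on rescaled log2 TPM. Among 13 granule and protection genes, 3 ranked higher and 4 lower, with a median of -0.31 that was -0.49, -0.74 and -0.18 without library 1, 2 and 3 and -0.68 on rescaled log2 TPM. Srgn, the proteoglycan serglycin that holds granule proteins, was at 2077, 1610 and 1661 TPM against 267.5 to 418 TPM. Serpinb9 and Serpinb6b, inhibitors that shield the killer from its own proteases, also ranked higher. Nkg7, a granule membrane protein needed for degranulation, was at 1242, 1123 and 1158 TPM against 2484 to 3135 TPM and ranked lower, with Ctsd, Ctsw and Unc13d.

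Secreted factors stood out by their rank. Of 17 counted cytokine and chemokine genes, 7 ranked higher and 1 lower, with a median of 0.80. Xcl1, which attracts cross-presenting dendritic cells, was at 2664, 1726 and 1872 TPM against 107 to 234.5 TPM. Ifng, the gene of interferon gamma, was at 453, 403 and 752 TPM against 43.8 to 71.4 TPM. All WT splenic libraries lay well below the lowest tumour value of both genes. Ccl3 and Ccl4, inflammatory chemokines, ranked higher too, with Ccl4 at 463, 427 and 760.1 TPM against 91.2 to 147.5 TPM. Cxcl10, an interferon-induced chemokine that binds CXCR3, was at 119, 142 and 130.3 TPM against at most 4.11 TPM. Ccl1 met the rule at 6.51, 10.6 and 4.54 TPM. Csf1, a macrophage growth factor, was at 2.93, 30.1 and 37.98 TPM, with library 1 lowest as for fibroblast markers such as Col3a1. The part of fibroblast transcripts in the Csf1 value was not tested. Ccl5 was the member that ranked lower, at 3662, 3927 and 4180 TPM against 5676 to 10134 TPM, though it was still the gene at median rank 16.

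**Figure D3:**
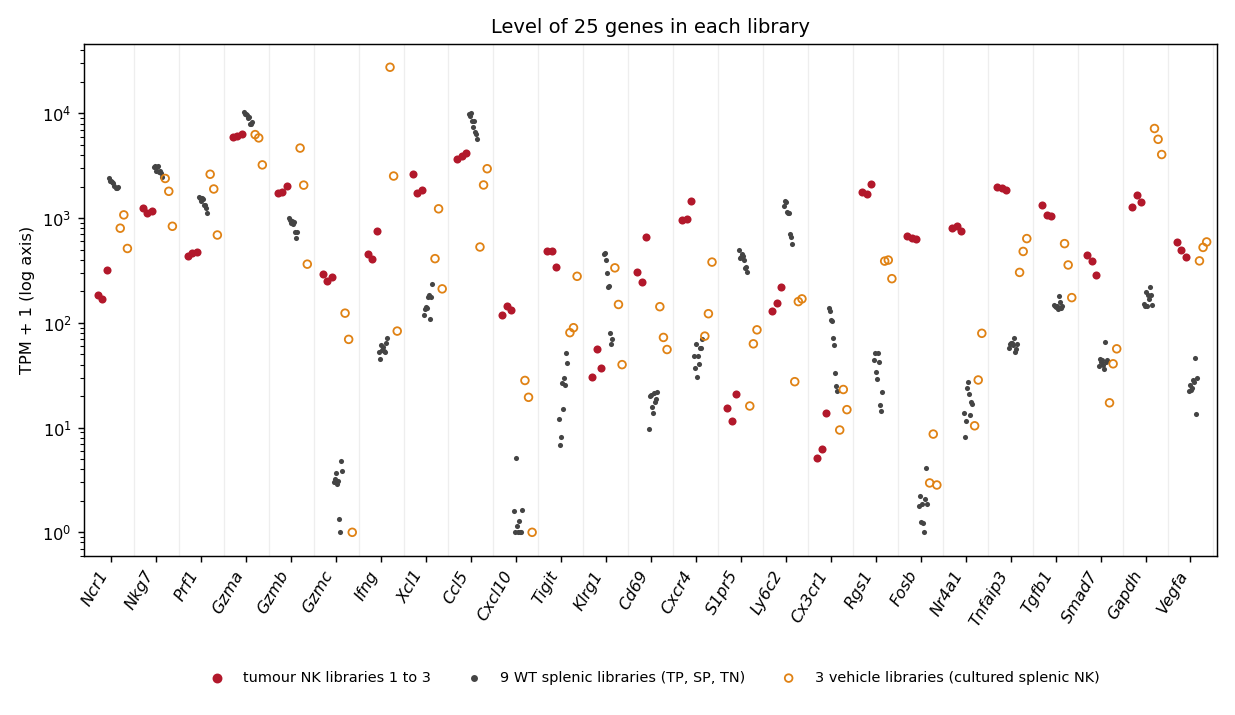
Level of 25 genes as TPM + 1 on a log axis in the 3 tumour NK libraries (red, library 1 to 3 from left to right), the 9 WT splenic libraries (black) and the 3 vehicle libraries, NK cells from cultured splenocytes (open orange). Ncr1 lies at 168 to 321 TPM in tumour libraries, below both references, and Tnfaip3 at 1872 to 1980 TPM, above both.

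Activation-induced transcription factors ranked higher almost as a block. Of 19 counted genes, 14 ranked higher and none lower, with a median log2 rank ratio of 3.94. The count was 14 without any 1 of the tumour libraries and in library 1 alone. Some of these genes, such as Fos and Nr4a1, switch on within minutes of receptor or stress signals, and several carry cyclic AMP response elements in their promoters. Promoters are shown for 3 of them because TGACG, the core of that element, occurs in each. Of the 20 listed genes, 14 matched a RefSeq promoter (250 bases before the start, GRCm38.p6), and 9 of the 14 (64.3%) hold TGACG on either strand against 19.8% of all 27025 genes with a promoter. Among the 11 matched genes that ranked higher, 7 hold it. TGACG is not particular to this list. It also lies in 50.0% of the matched NF-kappaB genes and 46.7% of the matched heat shock genes described below, and in 20.0% of the matched hypoxia genes. A gene with more than 1 listed start was counted if any of its windows held the motif. A match is a description of letters and not a binding site, and RefSeq's build is not the authors'. Capitals mark TGACG, or CGTCA where it lies on the other strand, in sequences written in the direction of transcription.
Nr4a1 chr15:101266596-101266845, plus strand: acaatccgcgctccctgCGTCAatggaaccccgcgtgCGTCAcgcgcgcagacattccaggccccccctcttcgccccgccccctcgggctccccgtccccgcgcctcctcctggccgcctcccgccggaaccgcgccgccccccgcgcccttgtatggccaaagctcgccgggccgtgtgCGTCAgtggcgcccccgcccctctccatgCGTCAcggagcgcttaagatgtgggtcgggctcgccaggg
Fosb chr7:19310046-19310295, minus strand: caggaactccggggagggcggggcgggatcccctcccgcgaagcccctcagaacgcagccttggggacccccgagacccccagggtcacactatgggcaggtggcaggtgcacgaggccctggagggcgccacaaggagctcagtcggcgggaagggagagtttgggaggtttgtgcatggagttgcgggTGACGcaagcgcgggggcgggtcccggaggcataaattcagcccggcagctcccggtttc
Fos chr12:85473640-85473889, plus strand: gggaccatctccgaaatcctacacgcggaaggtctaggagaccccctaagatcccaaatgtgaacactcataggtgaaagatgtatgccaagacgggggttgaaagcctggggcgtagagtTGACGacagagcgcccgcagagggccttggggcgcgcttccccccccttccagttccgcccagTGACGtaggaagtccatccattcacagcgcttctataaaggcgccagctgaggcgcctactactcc

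Nr4a1, which encodes the orphan nuclear receptor Nur77, was at 807, 848.5 and 748 TPM against 7.11 to 26.2 TPM in WT splenic libraries, and its promoter holds 4 matches. Its median rank was 190 against 7568. Nr4a2 and Nr4a3, of the same family and tied to dysfunction of tumour T cells, were at 398 to 651.5 TPM and 362 to 698 TPM, both highest in library 1. Fosb, an AP-1 subunit, was at 669.6, 641 and 634.5 TPM against at most 3.10 TPM, and Fos at 382, 399 and 463 TPM against at most 8.30 TPM. The 3 libraries were close together for these genes, and no splenic value came near them. Jun was at 296, 438 and 706 TPM and Atf3, a stress-induced factor, at 78.9, 80.1 and 289 TPM, both highest in library 3. Junb was at 2201, 2000 and 1459 TPM. Crem, a cyclic AMP responsive factor, was at 1001, 699 and 479.8 TPM against 12.6 to 36.2 TPM, and Bhlhe40 at 1579, 1226 and 1433 TPM. Not all members shared this. Irf4 was under 1 TPM in every tumour library, Batf was at 11.8 to 14.5 TPM, below the 24.2 to 46.2 TPM of WT spleen, and Egr3 and Nfatc1 were called in neither direction.

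Genes of NF-kappaB feedback and survival behaved alike. Of 17 counted genes 13 ranked higher and none lower, with a median of 1.97, and the count was 13 without each library and in library 1 alone. Tnfaip3, the ubiquitin editor A20 that shuts off NF-kappaB, was at 1980, 1952 and 1872 TPM against 52.1 to 69.95 TPM, a median rank of 67 against 3424. Nfkbia, the inhibitor that holds NF-kappaB in the cytoplasm, was at 1356, 1470 and 1482 TPM against 73.0 to 145 TPM. The 3 libraries differed little for either gene. Nfkbid, Nfkbie, Nfkbiz, Nfkb2, Rel, Relb and Birc3 ranked higher as well. Bcl2l11, the pro-apoptotic BIM gene, was at 436, 457 and 357 TPM against 57.7 to 95.4 TPM, and the anti-apoptotic Bcl2 at 164, 162 and 148 TPM against 52.7 to 100.3 TPM. Bcl2l1 and Mcl1 were called in neither direction. Of 14 members with a RefSeq promoter, 6 (42.9%) hold a kappaB motif (GGG, then any 2 bases, then TTTCC) on either strand, against 1.65% of all genes. Of the 11 matched members that ranked higher, 4 hold it. Both inhibitors named above do, and their promoters are shown with the match in capitals, read on the other strand.
Nfkbia chr12:55492648-55492897, minus strand: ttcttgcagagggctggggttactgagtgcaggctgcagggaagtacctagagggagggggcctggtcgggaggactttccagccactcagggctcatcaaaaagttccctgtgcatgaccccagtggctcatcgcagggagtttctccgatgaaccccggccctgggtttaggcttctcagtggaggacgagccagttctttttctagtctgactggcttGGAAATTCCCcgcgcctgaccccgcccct
Tnfaip3 chr10:19015411-19015660, minus strand: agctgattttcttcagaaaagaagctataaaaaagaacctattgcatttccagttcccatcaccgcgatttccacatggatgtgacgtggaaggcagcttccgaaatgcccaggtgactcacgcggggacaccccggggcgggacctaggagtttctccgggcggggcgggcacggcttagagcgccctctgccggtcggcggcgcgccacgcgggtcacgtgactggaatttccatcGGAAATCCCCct

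Among the 23 gene lists, that of heat shock and handling stress genes had the highest share of members called, with 16 of 18 ranked higher and none lower and a median of 2.89. That count too was 16 without each library and in library 1 alone. These chaperones refold damaged proteins and rise with heat, low oxygen and tissue dissociation, and the labels do not give the dissociation step. Hspa8, the constitutive HSC70, was at 4816, 4623 and 6384 TPM against 598.5 to 1189 TPM. Hsp90aa1 was at 1617, 1334 and 2109 TPM and Hsph1, a co-chaperone, at 322, 406 and 953 TPM, so library 3 was highest for all 3 genes. The inducible Hspa1b was at 374, 457 and 3785 TPM and its near copy Hspa1a at 149, 246 and 1933 TPM, against at most 12.5 and 4.59 TPM, and reads may be split between them. B2m-/- splenic libraries also lay above WT ones for some of these genes, with Hspa8 at 1563 to 2660 TPM and Hsph1 at 69.4 to 189 TPM, yet under the tumour values. Hspa5, the chaperone of the endoplasmic reticulum, was at 1661, 1579 and 1262 TPM. The metallothionein Mt1 was at 4.50, 54.3 and 64.5 TPM, lowest in library 1. Ddit3 and Ddit4 were called in neither direction. Handling and tissue of origin cannot be told apart here, and the immediate early genes above are known to respond to handling as well. Of 15 members with a promoter, 5 (33.3%) hold GAANNTTC, the core of a heat shock element, against 7.73% of all genes, and Hspa1b's promoter shows 1 match in capitals.
Hspa1b chr17:34959239-34959488, minus strand: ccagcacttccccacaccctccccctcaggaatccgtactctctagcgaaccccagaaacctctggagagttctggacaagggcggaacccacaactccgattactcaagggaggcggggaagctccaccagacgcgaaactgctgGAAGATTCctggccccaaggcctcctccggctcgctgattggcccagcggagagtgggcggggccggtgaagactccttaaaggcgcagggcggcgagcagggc

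Genes of circulating mature NK cells ranked lower than in fresh spleen, which did not hold against the cultured vehicle cells (1 of 12 lower, median 0.11). Of 12 counted, 9 ranked lower and 1 higher, with a median of -2.14. S1pr5, the sphingosine phosphate receptor by which NK cells leave tissue, was at 14.6, 10.6 and 19.7 TPM against 305 to 496 TPM, a median rank of 6544 against 351. Ly6c2 was at 129.9, 154 and 220.3 TPM against 567 to 1459 TPM, and Cx3cr1, the fractalkine receptor, was at 4.11, 5.31 and 12.7 TPM against 21.4 to 139 TPM. No tumour value of these 3 genes reached the splenic range. Zeb2 and Klf2, factors that drive maturation and recirculation, also ranked lower, with Zeb2 at 54.5, 86.3 and 71.8 TPM against 182 to 433 TPM. Cma1, Itgam and Itga4 were also among the 9. Emb, the adhesion protein embigin, was the exception at 324, 231.5 and 221 TPM against 11.8 to 26.9 TPM.

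Genes of tissue residency were split. Of 13 counted, 5 ranked higher and 1 lower, with a median of 0.80, and on rescaled log2 TPM 8 were higher. Rgs1, a brake on chemokine receptor signalling, was at 1775, 1712 and 2135 TPM against 13.3 to 51.0 TPM, and Rgs16 at 588, 431 and 509.8 TPM against at most 5.57 TPM. Rgs2 was at 720.3, 503 and 689 TPM. Cd69, an activation marker that antagonises egress, was at 305, 247 and 655 TPM against 8.60 to 20.8 TPM. Socs3, the fifth, was at 354, 300.1 and 278 TPM. The canonical residency markers did not follow. Cxcr6 was at 0, 1.79 and 1.84 TPM, Itgae, the CD103 gene, at 0.62, 0 and 0 TPM, and Zfp683, the Hobit gene, was listed at 0. Itga1, the CD49a gene, was at 22.5, 15.7 and 18.8 TPM, above all WT splenic values (at most 4.74 TPM) though its ranks were less than 2-fold apart. Itgae was the member that ranked lower, and without library 2 or library 3 none did.

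Homing and adhesion genes were mostly lower than in fresh WT spleen, with 10 of 18 ranked lower, 3 higher and a median of -1.36. Against the vehicle libraries 4 of 19 ranked lower and 2 higher, with a median of -0.26. Cxcr4, the receptor of a stromal chemokine, was at 957, 990.4 and 1469 TPM against 29.2 to 69.4 TPM. B2m-/- splenic libraries held 412 to 528 TPM of it and vehicle libraries 73.7 to 379 TPM, so it was highest in the tumour libraries in each case. Cd44, a hyaluronan receptor, also ranked higher, at 321, 324 and 259 TPM. Itgb2, the beta chain shared by the leukocyte integrins, was at 427, 380.1 and 476 TPM against 1385 to 2033 TPM, and its partners Itgal and Itgam ranked lower with it. Ccr2, a receptor for inflammatory chemokines, was at 85.9, 78.45 and 133.5 TPM against 202 to 314 TPM and ranked lower. Cxcr3 was at 8.14, 4.42 and 13.2 TPM against 34.1 to 64.4 TPM and was called in neither direction because its ranks were less than 2-fold apart. Itgb1, the beta chain of the matrix-binding integrins, was at 853.5, 765.5 and 945 TPM, above the 507 to 559.5 TPM of WT spleen, and was likewise in neither set.

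**Figure D4:**
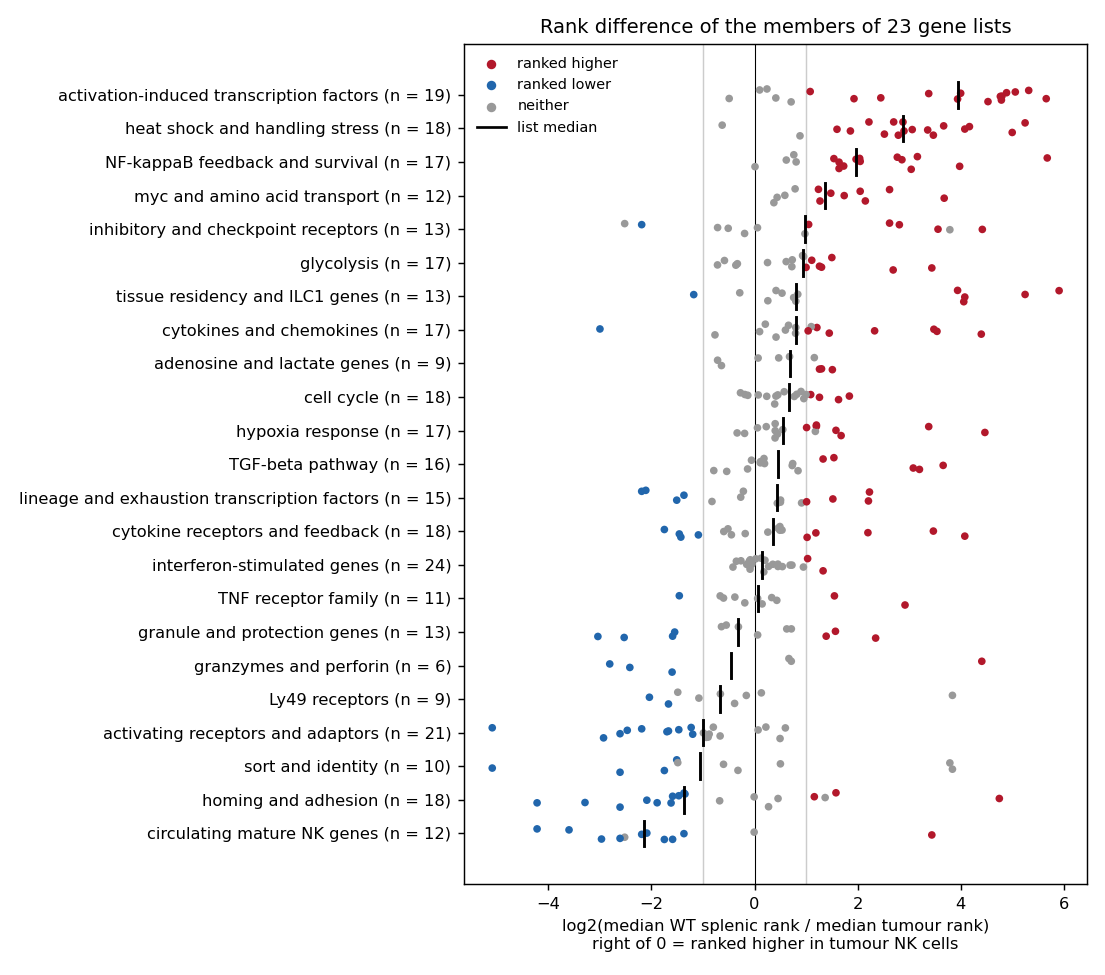
Log2 of the median WT splenic rank over the median tumour rank for each counted member of 23 gene lists (points) with the list median (black bar), grey lines at a 2-fold rank ratio. Activation-induced factors (median 3.94) lie farthest right and circulating mature NK genes (median -2.14) farthest left.

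Among transcription factors of lineage and exhaustion, 4 of 15 ranked higher and 4 lower, with a median of 0.44. Tbx21 was at 242, 184 and 174 TPM against 375 to 566 TPM and ranked lower, while Eomes was at 644, 572.5 and 653 TPM, above all WT splenic values of 312 to 570.4 TPM, and in neither set. The tumour libraries therefore held more Eomes than Tbx21 transcript, by TPM, whereas the WT splenic medians were 418 TPM for Eomes and 492 TPM for Tbx21. Ikzf3, the Aiolos gene, was at 177, 166 and 142.5 TPM against 565 to 700.1 TPM. Nfil3, Klf6, Hif1a and Tcf7 ranked higher, with Nfil3, required for NK development, at 180, 145 and 157 TPM against 34.7 to 54.0 TPM. Tox, tied to T cell exhaustion, was at 23.1, 14.2 and 14.0 TPM, not above the splenic 18.8 to 48.8 TPM, and Tox2 was at 0.

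Cytokine receptors and their feedback genes went both ways, with 5 of 18 ranked higher and 4 lower, a median of 0.36, and 3 higher once B2m-/- libraries joined the reference. Cish, the SOCS family protein that restrains IL-15 signalling in NK cells, was at 188, 177 and 187 TPM against 3.11 to 18.6 TPM. Stat3 was at 997, 942 and 792 TPM against 199 to 335 TPM. Both sets lay apart with no overlap. Il18r1, Il18rap and Il10ra ranked lower, with Il18rap, a chain of the IL-18 receptor, at 426, 413 and 461 TPM against 970.5 to 1316 TPM. Il2rb, the shared beta chain of the IL-2 and IL-15 receptors, was at 2239, 1968 and 1787 TPM, within a few TPM of the splenic range of 1788 to 2039 TPM or above it, and was called lower only by rank (66 against 31), since its rescaled log2 difference was 0.0785. Il2ra, the high-affinity chain that activated cells gain, was at 5.60, 5.63 and 13.6 TPM. Of 11 TNF receptor family genes, Tnfrsf9 and Tnfrsf1b ranked higher and Tnfrsf4 lower, with a median of 0.06 (0.02 to 0.08 with 1 tumour library left out, -0.17 on rescaled log2 TPM). Over all counted genes 7.60% ranked higher and 5.62% lower, so counts this small are not read as a trait of the list. Tnfrsf9, the costimulator 4-1BB, was at 379, 290.3 and 370.3 TPM against 57.3 to 126 TPM in WT and 14.5 to 34.3 TPM in B2m-/- splenic libraries, but at 171 to 1613 TPM in the vehicle libraries.

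TGF-beta signalling restrains NK cells and is relayed from receptors through SMAD proteins to inhibitors that close the loop. Of 16 counted genes of the pathway, 5 ranked higher and none lower, with a median of 0.46. The ligand Tgfb1 was at 1323, 1072 and 1045 TPM against 133 to 179 TPM, and above the 173 to 569.8 TPM of the vehicle libraries. The receptor chains Tgfbr1 and Tgfbr2 and the signal carriers Smad2, Smad3 and Smad4 were called in neither direction. The feedback inhibitors were called. Smad7 was at 442, 391 and 282.5 TPM against 34.9 to 64.4 TPM, Skil at 273, 269 and 268 TPM against 32.3 to 52.2 TPM, and Ski at 135, 106 and 112 TPM against 53.5 to 67.95 TPM. All 3 also ranked higher than in the vehicle libraries. Inhba, an activin subunit, was at 1.48, 32.0 and 35.7 TPM and Tgfb3 at 2.62, 28.5 and 26.0 TPM. Both were lowest in library 1, like fibroblast markers such as Col3a1. The part of fibroblast transcripts in these values was not tested. Without library 2, or in library 1 alone, 4 members ranked higher and 1 lower, and on rescaled log2 TPM 3 were higher and 2 lower. The median was 0.28 without library 2 or library 3.

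Glycolytic genes differed by reference. Against WT splenic libraries 7 of 17 ranked higher and none lower, with a median of 0.93. Gapdh was at 1274, 1656 and 1436 TPM against 142 to 221 TPM, Pgk1 at 145, 286 and 349 TPM against 49.9 to 84.3 TPM, and Ldha, which makes lactate, at 478, 554 and 471 TPM against 197 to 286 TPM. Library 1 was lowest for Gapdh and Pgk1, and in library 1 alone 4 of the 17 ranked higher. Slc16a3, a lactate exporter, was at 7.37, 46.7 and 43.8 TPM against 3.02 to 9.45 TPM, so its level in library 1 was inside the splenic range although its rank was not. Slc2a1, a glucose transporter, ranked higher, while Slc2a3, Hk1 and Pfkp were called in neither direction. On rescaled log2 TPM 3 of the 17 were higher and 1 lower, and the median was 0.58 without library 2. In the vehicle libraries Gapdh reached 4048 to 7172 TPM, so the tumour level lay between that of fresh and of cultured cells.

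The hypoxia list gave a similar picture, with 7 of 17 ranked higher and none lower, a median of 0.55, and 4 in library 1 alone. Vegfa, the vascular growth factor, was at 591, 491.5 and 421 TPM against 12.4 to 45.3 TPM, and the vehicle libraries were at 389.5 to 591 TPM. Bnip3, a mitophagy receptor, was at 12.3, 34.6 and 67.9 TPM against 3.66 to 11.6 TPM, and Ndrg1 at 39.3, 66.9 and 70.3 TPM against 3.14 to 29.9 TPM, both lowest in library 1. P4ha1, Ero1a, Ankrd37 and Bhlhe40 also ranked higher. Hif1a, the oxygen-regulated factor, was at 78.1, 62.8 and 86.8 TPM against 20.6 to 37.5 TPM. Adm was at 0, Egln3 at 1.91 to 10.6 TPM, and Car9 at 0.55, 1.14 and 23.8 TPM. ACGTG, the core of the hypoxia response element, lies on either strand in 11 of 15 members with a promoter (73.3%) against 18.5% of all genes, and in 5 of the 5 matched members that ranked higher. The first of the 2 windows listed for Vegfa holds none. The palindrome CACGTG counts on both strands, and ACGTG can overlap TGACG. Bnip3's promoter is shown with its match in capitals.
Bnip3 chr7:138909507-138909756, minus strand: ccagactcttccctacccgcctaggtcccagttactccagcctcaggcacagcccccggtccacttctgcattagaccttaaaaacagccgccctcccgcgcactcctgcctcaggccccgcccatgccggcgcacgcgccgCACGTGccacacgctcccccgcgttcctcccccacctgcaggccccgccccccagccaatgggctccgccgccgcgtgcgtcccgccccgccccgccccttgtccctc

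Of 9 adenosine and lactate genes 3 ranked higher, Ldha and Slc16a3 among them, with a median of 0.68. Nt5e, the CD73 enzyme that makes adenosine, was at 58.9, 53.4 and 33.9 TPM against 4.95 to 10.1 TPM. The adenosine receptor gene Adora2a was at 84.5, 102 and 87.1 TPM, below the splenic 112 to 173 TPM and in neither set, and Entpd1, the CD39 gene, was in neither set. Of 12 growth genes around Myc, 8 ranked higher and none lower, with a median of 1.37. Against the vehicle libraries 2 of these 12 ranked higher and none lower, with a median of 0.44. Odc1, which starts polyamine synthesis, was at 649, 411 and 434 TPM against 34.0 to 65.9 TPM, Npm1 at 1194, 1282 and 1302 TPM against 238 to 344 TPM, and Slc3a2, the shared chain of amino acid transporters, at 708.5, 457 and 502 TPM against 103 to 157 TPM. Myc itself was at 77.4, 117 and 149 TPM against 26.2 to 64.3 TPM.

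Among cell cycle genes, several mitotic ones separated library 1 from the others. Of 18 counted, 4 ranked higher and none lower, with a median of 0.67. The count was 6 without library 1 and 2 with B2m-/- libraries in the reference, and the median was 0.37 without library 2. Cdk1, the mitotic kinase, was at 4.09, 59.3 and 75.7 TPM, Ccna2 at 0.18, 23.5 and 26.3 TPM, and Ube2c at 0, 21.3 and 19.0 TPM. For these mitotic genes libraries 2 and 3 were high and library 1 lay in or below the WT splenic range. Library 1 was also lowest for fibroblast markers such as Col3a1 and Dcn, though not for Thy1. The part of fibroblast transcripts was not tested. Genes of DNA replication differed from one another. Mcm2 was at 15.2, 24.1 and 28.6 TPM against a WT splenic median of 38.8 TPM. Mcm5 was at 26.0, 26.7 and 32.5 TPM against 48.6 TPM, and both were called in neither direction. Pcna and Mcm6 lay above all WT splenic values in all 3 libraries. Pcna was at 291, 353 and 310.1 TPM against 111 to 151 TPM and Mcm6 at 155, 175 and 117 TPM against 73.4 to 113 TPM, so library 1 was lowest for Pcna and library 3 for Mcm6. Mki67, the proliferation antigen, was at 6.90, 21.2 and 13.3 TPM and was called in neither direction.

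Interferon-stimulated genes were called about as often as all genes. Of 24 counted, 2 ranked higher and none lower, beside 7.60% and 5.62% over all counted genes, with a median of 0.15 (-0.18 on rescaled log2 TPM). Bst2, the virus tether tetherin, was at 57.8, 50.0 and 61.5 TPM against 12.1 to 26.8 TPM, and Gbp3 was the other. Isg15 was at 45.6, 22.6 and 7.43 TPM, so the libraries disagreed. Without library 1 the count is 1 and the median 0.06, and without library 2 the median is 0.31.

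Against the vehicle libraries, which share the tumour libraries' batch date and gene set but come from cultured splenocytes, 589 of 12160 counted genes (4.84%) ranked higher and 352 (2.89%) ranked lower. The vehicle libraries were themselves uneven, with Ifng at 27589, 2522 and 82.4 TPM. Of the activation-induced factors 10 of 19 ranked higher and none lower, among them all 3 Nr4a genes, Fos, Fosb, Jun, Junb, Atf3 and Crem. Heat shock genes ranked higher in 13 of 18 cases, NF-kappaB genes in 8 of 17 and TGF-beta genes in 5 of 16. Glycolysis turned over, with 15 of 17 ranked lower and none higher, and 10 of 17 hypoxia genes ranked lower. The median rank of Ifng, Gapdh and Vegfa, higher than in fresh WT spleen, lay below that of the vehicle libraries, with log2 rank ratios of -3.58, -4.07 and -0.13. Ccl5, Itgam, Tyrobp and Gzma, lower than in fresh spleen, lay above it, at 1.17, 0.41, 0.17 and 0.36. Of the 12 circulating mature NK genes none ranked higher and 1 lower, with a median of 0.11 against -2.14 for fresh spleen. Cma1, Itgam, Zeb2, Ly6c2 and Itga4 turned in sign, and S1pr5 was at 15.1 to 84.8 TPM and Cx3cr1 at 8.48 to 22.1 TPM in the vehicle libraries, so neither was called. Ncr1, Klrk1, Cd244a and Slamf7 were the 4 activating receptor genes that ranked lower, and Fcgr3 was the 1 that ranked higher. Rgs1, Rgs2, Rgs16 and Cd69 ranked higher and Cxcr6 and Kit lower. Both comparisons use the same tumour libraries, so they are not independent of each other.

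**Figure D5:**
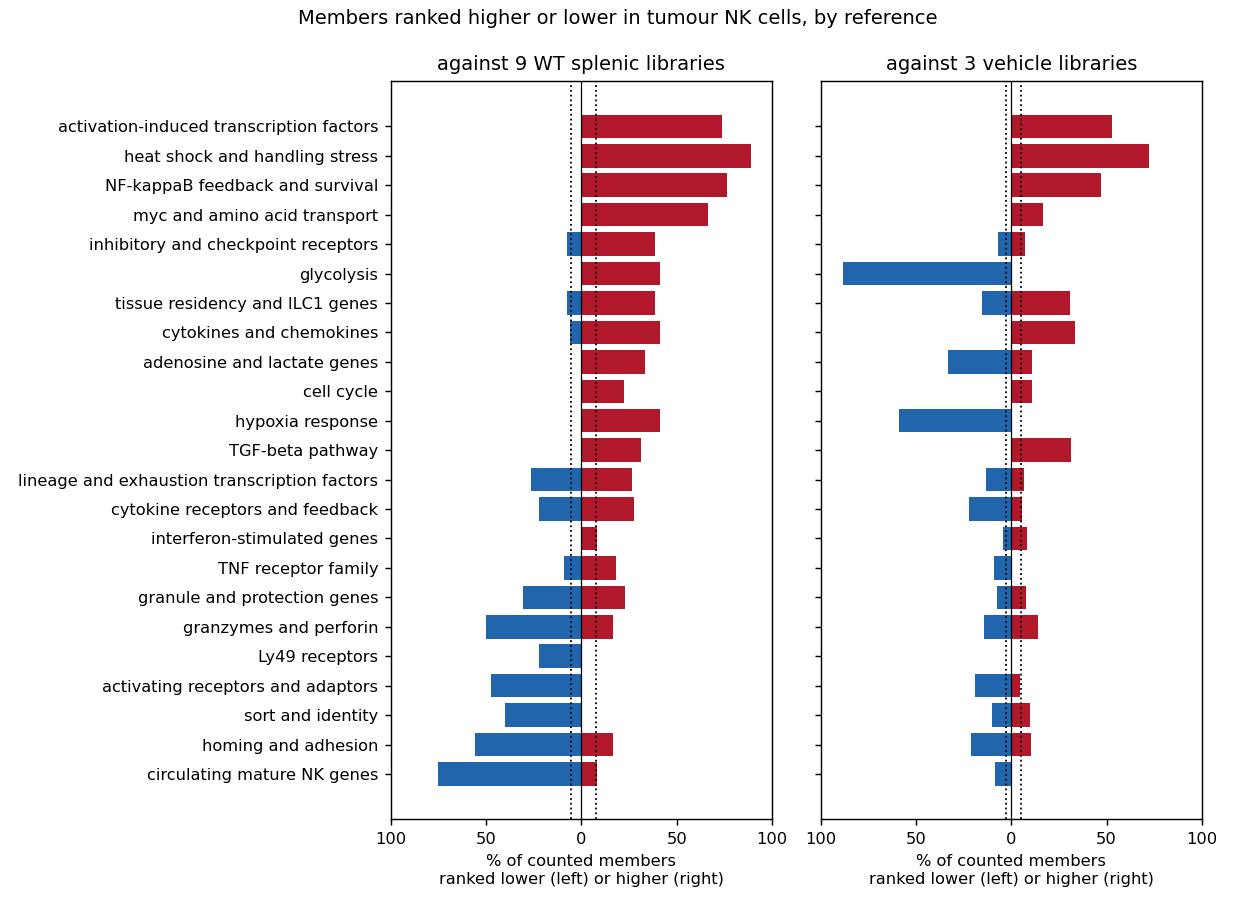
Share of counted members of each list that ranked higher (red, right) or lower (blue, left) in tumour NK cells, against 9 WT splenic libraries and against 3 vehicle libraries, with dotted lines at the share over all counted genes (7.60% and 5.62%, then 4.84% and 2.89%). Activation, NF-kappaB and heat shock genes extend right in both panels, and glycolysis extends right in the splenic panel and left in the vehicle panel.

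Where the 3 tumour libraries differed most among themselves, library 1 was most often the lowest. Over the 8338 genes that averaged 10 TPM or more, the range of log2(TPM + 1) had a median of 0.64 (1.56-fold), and 5897 genes (70.7%) stayed under 1. Over these genes the median range was 0.385 without library 1, 0.422 without library 2 and 0.347 without library 3, so library 1 was not the most distant by this measure. A range of at least 2 was found for 732 genes (8.78%), of which 438 were lowest in library 1, 133 in library 2 and 161 in library 3. The highest value of these 732 genes lay in library 1 for 159, in library 2 for 259 and in library 3 for 314. The widest were Hbb-b1, Hba-a2, Shisal2b and Col7a1, the last a basement membrane collagen at 0.16, 65.4 and 27.9 TPM. Tmsb15b2 broke the order, at 45.7, 0.92 and 104.5 TPM. A group of 80 genes was under 1 TPM in all 18 splenic subset libraries and averaged at least 10 TPM in tumour libraries. Of these, 76 were lowest in library 1, and the 80 together summed to 404.8, 4663 and 3501 TPM. They were selected after the values were seen, as were the examples that follow. Sparc, a matrix protein, was at 19.4, 138 and 99.4 TPM, Col6a1 at 7.31, 233 and 152 TPM, Pdgfra at 0, 39.6 and 23.6 TPM, and Rhox5, a homeobox gene active in many tumour lines, at 0, 50.8 and 46.2 TPM. Only 6 of the 80 reached 10 TPM in all 3 libraries, Col3a1, Sparc, Ppic, Ccl2, Mpo and Rasl11b. Fn1, the fibronectin gene, was at 48.5, 874 and 656 TPM and follows the same order. Among the 15 genes with the largest rank gains over WT spleen, Col3a1, Fn1, Hspa1a and Hspa1b had log2 ranges of 4.83, 4.14, 3.68 and 3.34 among the 3 libraries, and Jun and Crem of 1.25 and 1.06. Rgs1, Tnfaip3, Fosb, Nr4a1, Rgs16, Dusp1, Ctla2a, Fos and Nr4a2 had ranges of 0.08 to 0.71.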

How the data were processed

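RNA of 3 tumour NK libraries was sequenced from 50 ng of total RNA with a kit that captures poly(A) RNA, per the labels. The authors deposited TPM, rounded to 2 decimals, and the submitters' processing notes name STAR, RSEM and GRCm39, without versions, order or annotation. The deposited tumour table lists 56923 genes and the table of splenic subsets lists 32940 genes. Genes were paired by Ensembl identifier and ranked within each library over the 32938 shared genes, ties averaged, so that a gene at 0 takes a shared last rank. That last rank depends on how many genes are at 0 in the library, so it differs between libraries. Genes counted had an average of the group means of at least 1 TPM. Spread used log2(TPM + 1) and a mean of at least 10 TPM. No test was made, because the tumour libraries have no control in their table. TPM hide depth, so no counting error is given, and a few very high genes lower all others. Named genes were the members of 23 lists and 11 marker lists, the 15 largest rank gains and 15 largest losses among genes within median rank 5000, the 15 highest levels and the 10 widest spreads, leaving out predicted, mitochondrial and ribosomal protein genes. Members and lists were chosen with earlier results of these data known. Some list members are counted but not reported here by name. Promoters came from RefSeq (GRCm38.p6). Python 3.11.15, pandas 2.3.3 and numpy 2.4.6 were used.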

Additional observations from a re-analysis of the deposited data

How the results depend on the processing

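No paired analysis was possible because the results come from no test and the tumour libraries have no control in their table. The counts of 947 genes ranked higher and 700 ranked lower became 1975 and 2047 with non-overlap alone, 232 and 127 with a 4-fold rank ratio, and 589 and 352 against the vehicle libraries. On rescaled log2 TPM 2191 genes were lower. Leaving out 1 library at a time, tumour or WT splenic, gave 843 to 1199 genes higher and 697 to 818 lower. Library 1 alone gave 1052 and 990, an alternative added after the data were seen, as were all list counts by library or reference. The WT SP reference, all 18 splenic libraries, a minimum of 5 TPM, no minimum, and leaving out technical genes kept both counts within 1.5 times. The median log2 range among tumour libraries, 0.643, was 0.984 with a minimum mean of 1 TPM and 0.347 to 0.422 with 1 library left out, where fewer libraries span the range.

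Of the 200 counted gene entries named in the text, the sign of a call turned for 37 against the vehicle libraries and for Il2rb (0.0785) on rescaled log2 TPM. Without a call turning, 116 others moved against vehicle by more than the replicate spread, the standard deviation of the tumour log2 ranks, leaving 47 within it. On rescaled log2 TPM 140 differed by more than that spread and 59 did not. There a log2 TPM difference was set against a log2 rank ratio, so the 140 and 59 mix unlike units and do not measure movement. The cause was not tested. Against vehicle the log2 rank ratios were, for genes that ranked higher against WT spleen, Gapdh -4.07, Ifng -3.58, Pgk1 -3.55, Bnip3 -3.49, Slc16a3 -2.91, Ldha -2.62, Ero1a -2.20, Lilrb4a -2.07 and -0.650 for its entries, Slc2a1 -1.80, Tnfrsf9 -1.80, Ndrg1 -1.61, Ctla4 -1.46, P4ha1 -1.33, Hif1a -1.31, Ankrd37 -1.06, Gbp3 -0.863, Nfil3 -0.547, Stat3 -0.445, Birc3 -0.184, Btg1 -0.165, Serpinb9 -0.148, Thy1 -0.146, Vegfa -0.130 and Pecam1 -0.0179. For genes that ranked lower they were Cma1 1.31, Ccl5 1.17, Itgax 0.742, Ctsw 0.507, Cd160 0.412, Itgam 0.407, Gzma 0.363, Zeb2 0.211, Ly6c2 0.189, Tyrobp 0.169, Itga4 0.0303 and Klrb1c 0.00502. TPM carry no depth, so low levels have no counting limit here.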

Other observations

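Some genes were high in one table and at 0 in the other, which bears on every rank set across tables. Among counted genes within a median WT splenic rank of 5000, 12 were at 0 in all 3 tumour libraries. They include Trbj1-6, a T cell receptor joining segment, with a WT splenic median of 994 TPM, the mitochondrial genes ND4L at 869 TPM and COX2 at 359 TPM, the microRNA gene Mir6236 at 517 TPM and the Ly49 pseudogene Klra14-ps at 419 TPM. Of the 12, 10 were also at 0 in all 3 vehicle libraries, which share the tumour table's gene set. In the other direction, 5 counted genes within a median tumour rank of 1000 had a WT splenic median of 0. Gm10222 was at 4284 to 6114 TPM in tumour libraries and at 3029 to 4325 TPM in vehicle libraries. Col3a1, Col6a1 and Hspa1a, by contrast, were at 0 to 6.85 TPM in vehicle libraries. These genes were picked after their values were seen.

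Outside the lists, the genes with the largest rank losses included Neat1, a nuclear long noncoding RNA, at 113, 112.5 and 107 TPM against 818 to 1013 TPM in WT splenic libraries. Spn, the leukocyte surface sialoglycoprotein CD43, was at 148, 156 and 172 TPM against 1016 to 1211 TPM. Mylip, a ubiquitin ligase that targets the LDL receptor, was at 28.0, 30.5 and 28.8 TPM against 244.5 to 284 TPM, and Arhgef18, a guanine nucleotide exchange factor, at 40.4, 38.1 and 43.5 TPM against 374 to 427 TPM. The 3 tumour libraries lay close together for these 4 genes. Neat1 and Spn also ranked lower than in the vehicle libraries, while Mylip (25.3 to 112 TPM there) and Arhgef18 (8.08 to 99.5 TPM there) were called in neither direction against those. Among the gains, Dusp1, a phosphatase that ends MAP kinase signals, was at 530.1, 604 and 800.5 TPM against 3.04 to 11.3 TPM. Ctla2a, a cysteine protease inhibitor, was at 2696, 2046 and 2208 TPM against 129.8 to 342.5 TPM.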
